A study of Oryza sativa Indica Group with 24 samples.

Results

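The comparison described here was a difference of differences between 2 indica rice cultivars, waxy RD6 and high-amylose RD57. For each gene, the change in expression from 14 to 21 days post-anthesis (DPA) in RD57 was set against the change over the same interval in RD6. It asked which genes changed differently in the grains of the 2 cultivars. It used 12 of the 24 libraries of the series, 3 biological replicates each of RD57 14 DPA, RD57 21 DPA, RD6 14 DPA and RD6 21 DPA. Of the 26362 genes in the expression table, the 17186 (65.2%) above 0 in all 12 libraries were tested, and the rest are described by whether they were detected.

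Both cultivars were raised in pots in a net house under natural light, in a completely randomized layout, with no treatment beyond cultivar and DPA. RNA was taken from developing grains, and stranded mRNA libraries were sequenced. The labels name the tissue endosperm, whereas the methods describe grains, so the RNA may have included other grain tissues. In such bulk samples, fewer cells of a type and less RNA per cell cannot be told apart.

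During grain filling, the cereal endosperm turns imported sucrose into starch. ADP-glucose pyrophosphorylase makes the glucosyl donor ADP-glucose, and granule-bound starch synthase I (GBSSI), the product of the Waxy gene, elongates amylose. Filling then gives way to maturation, when the grain loses water and the starchy endosperm dies. Waxy cultivars hold little or no amylose because they have little GBSSI activity.

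Expression was given in FPKM, a fragment count divided by transcript length and sequencing depth, and was compared as log2(FPKM + 0.5). On this scale, a difference is understated for genes with low FPKM. A positive difference means that expression changed upward in RD57 relative to RD6, and a negative difference means the reverse. Replicates correlated at r of 0.955 to 0.979, and libraries of different groups at 0.707 to 0.949. The 10 most abundant genes took 39.4% to 40.6% of the summed FPKM in RD57 at 14 DPA and 24.2% to 27.8% in RD6. By 21 DPA their share was 13.5% to 18.8% in RD57 and 13.8% to 20.1% in RD6. The summed FPKM of a library was 1670000 to 1749000 in RD57 at 14 DPA and 830600 to 998200 at 21 DPA. In RD6 it was 1144000 to 1327000 at 14 DPA and 770900 to 941500 at 21 DPA. The part of these shifts in the results below was tested only through rescaled libraries. Rescaling gave 172 differing genes after quantile normalization and 167 after centring on the median, against 162 with the values as deposited.

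RD57 14 DPA replicate 1 and RD6 21 DPA replicate 1 stood apart. The former correlated with its fellow replicates at 0.961 and 0.957, and those with each other at 0.976. The latter correlated with its fellow replicates at 0.961 and 0.955, and those with each other at 0.97. The root mean square deviation of RD57 14 DPA replicate 1 from the mean of its fellow replicates was 0.562 on the log2 scale. In the other 11 libraries it was 0.360 to 0.505. RD6 21 DPA replicate 1 had the next highest deviation, 0.505. Both were kept, and the counts are also given without each. Of the libraries at 7 and 28 DPA used further on, RD57 7 DPA replicate 1 and RD6 28 DPA replicate 3 stood apart, with a mean r of 0.954 and 0.923 to their fellow replicates, and those correlated at 0.977 in both groups.

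Expression changed widely over the interval in both cultivars. In RD57, 5222 genes rose (30.4% of those tested) and 6063 fell (35.3%) at a limma adjusted p of at most 0.05. In RD6, 4493 rose (26.1%) and 5613 fell (32.7%). The changes in the 2 cultivars, which share no library, correlated at Pearson's r of 0.847 and Spearman's rho of 0.842 over the 17186 genes, as a description, since genes are not independent replicates. The SD over genes of the change was 1.345 in RD57 and 1.094 in RD6, a ratio of 1.229. Of the 4490 genes that fell in both cultivars, 64.4% had the larger fall in RD57, with a median difference of -0.19. Of the 3715 that rose in both, 66.1% had the larger rise in RD57, with a median difference of 0.17.

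The change itself differed between the cultivars in 162 genes (0.943% of those tested), at a limma adjusted p of at most 0.05 and an absolute difference of at least 2. The difference was negative in 126 genes (0.733%) and positive in 36 (0.209%). Negative differences thus made up 77.8% of the 162 genes, whereas 48.7% of all tested genes had a difference below 0. The 162 differences ranged from -5.42 to 3.90, with a median size of 2.40 against 0.40 over all tested genes. The median standard error was 0.48 in the 162 genes and 0.32 in all tested genes. By adjusted p alone, 629 genes (3.66%) passed, 378 negative and 251 positive. The called genes nearest to the size threshold had differences of -2.01 and -2.02, and those just short of it -1.99 and 1.98.

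**Figure D1:**
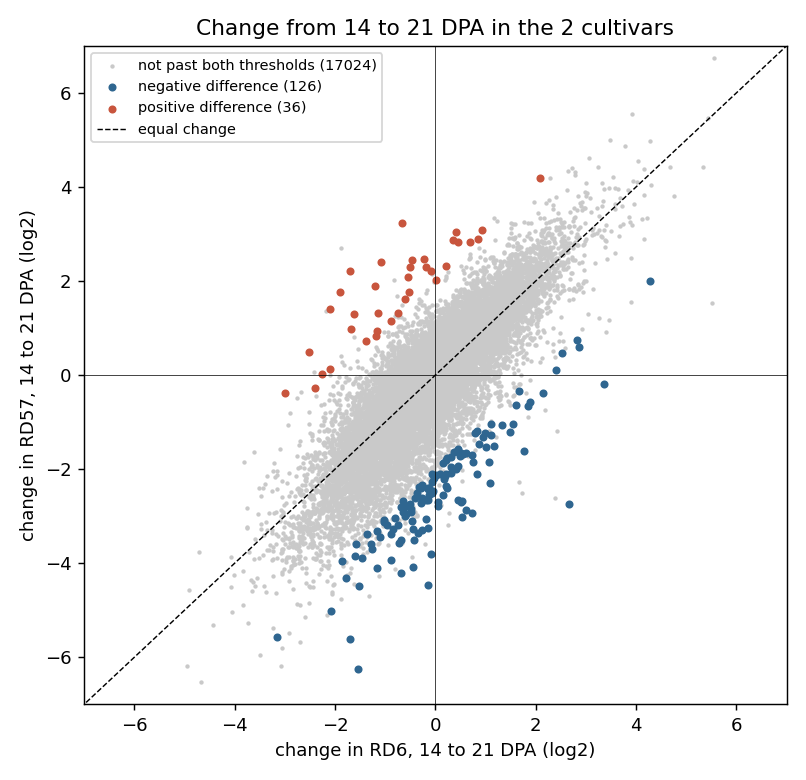
Change from 14 to 21 DPA on the log2(FPKM + 0.5) scale in RD6 (horizontal axis) and RD57 (vertical axis), 1 point per tested gene, with equal change on the dashed line. The 126 genes with a negative difference lie below the line, mostly where RD57 fell, and the 36 with a positive difference lie above it.

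The number of called genes and the balance of their directions depended on single libraries. Without RD57 14 DPA replicates 1, 2 and 3 in turn, 389, 63 and 64 genes passed both thresholds. Without RD6 14 DPA replicates 1, 2 and 3, the numbers were 122, 92 and 72. For RD57 21 DPA they were 77, 58 and 254, and for RD6 21 DPA 285, 63 and 87. By adjusted p alone, the numbers ran from 130 without RD57 21 DPA replicate 2 to 2262 without RD57 14 DPA replicate 1, against 629 with all libraries. Negative differences made up 55.2% of the genes past both thresholds without RD57 21 DPA replicate 2 and 86.6% without RD57 21 DPA replicate 3, with the other fits in between. By adjusted p alone, their share ran from 50.6% without RD57 14 DPA replicate 2 to 73.1% without RD57 21 DPA replicate 3, against 60.1% with all libraries. With all 12 libraries and in each of the 12 fits, 40 genes passed both thresholds, 25 negative and 15 positive.

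A fall in RD57 with little change in RD6 was the most common form of a negative difference. It was seen in 81 of the 126 genes (64.3%), in which RD57 passed the threshold for a fall and RD6 passed in neither direction. Their median change was -2.61 in RD57 and -0.09 in RD6. Their median expression went from 20.6 to 2.71 FPKM in RD57 and from 6.85 to 7.92 FPKM in RD6. That RD6 did not pass does not show that these genes were constant in it, since their changes in RD6 ran from -1.55 to 0.96. Over all 17186 tested genes, 6063 (35.3%) fell in RD57. Of those 6063 genes, 4490 also fell in RD6, 51 rose in it and the rest passed in neither direction there.

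A further 19 genes with a negative difference fell in both cultivars, and more so in RD57. These were the more abundant ones, with a median going from 142 to 6.96 FPKM in RD57 and from 46.9 to 19.9 FPKM in RD6. In 16 genes expression fell in RD57 and rose in RD6, from a median of 7.3 to 2.07 FPKM and of 2.23 to 6.4 FPKM, respectively. In 9 genes only RD6 passed, with a rise from a median of 2.09 to 16.2 FPKM. The last of the 126 rose in both cultivars, less so in RD57.

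Positive differences came mostly from a rise in RD57, with or without a fall in RD6. In 15 of the 36 genes, RD57 rose from a median of 2.71 to 16 FPKM and RD6 did not pass, at 2.97 and 2.27 FPKM. In 13 genes, RD57 rose from a median of 4.63 to 20.4 FPKM and RD6 fell from 7.84 to 3.14 FPKM. RD6 alone passed, with a fall from a median of 9.51 to 1.41 FPKM, in 5 genes, and both cultivars rose in 3. Over both directions, 29 of the 162 genes (17.9%) passed with opposite changes in the 2 cultivars. Over all 17186 tested genes, 51 (0.297%) fell in RD57 and rose in RD6, and 55 (0.32%) did the reverse. Of the same 17186 genes, 5222 (30.4%) rose in RD57, 4493 (26.1%) rose in RD6 and 3715 (21.6%) rose in both. A fall was seen in 5613 (32.7%) in RD6 and in 4490 (26.1%) in both cultivars. The classes were read from the values that chose the genes. Without RD57 14 DPA replicate 1, 153 of the 162 genes were called again, so that fit is not independent. In it, a fall in RD57 with RD6 not past the threshold was the largest class of the negative genes, 180 of 322. A rise in RD57 with RD6 not past was the largest class of the positive ones, 26 of 67. Of the 25 negative genes that passed in every fit, 14 fell in RD57 with RD6 not past. Of the 15 such positive genes, 6 rose in RD57 with RD6 not past, and 6 rose in RD57 and fell in RD6.

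**Figure D2:**
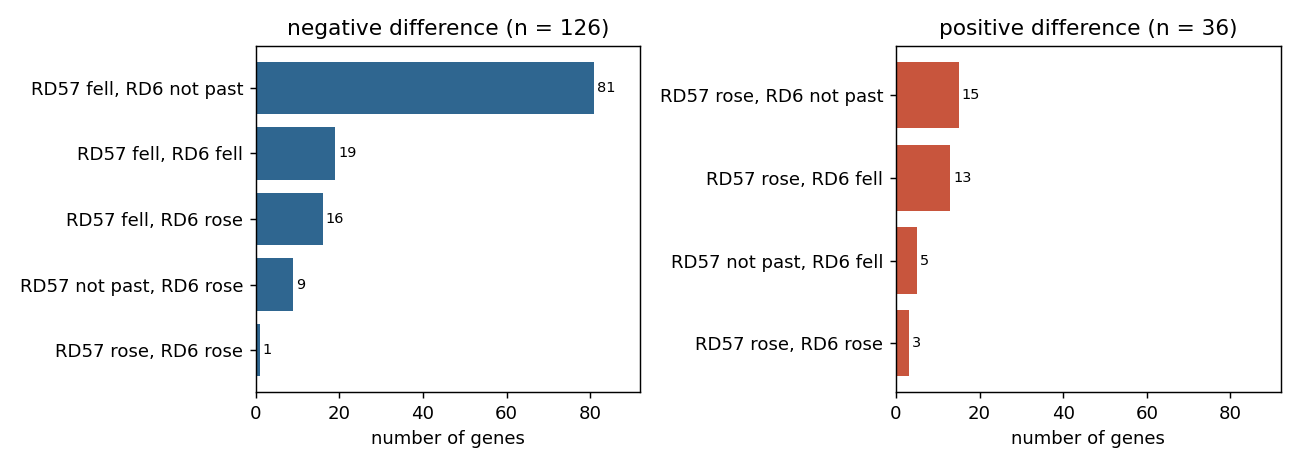
Number of genes in each class of change from 14 to 21 DPA, for the 126 genes with a negative difference (left) and the 36 with a positive one (right). Not past means an adjusted p above 0.05 for that cultivar's own change. The class in which RD57 fell and RD6 did not pass holds 81 genes and is the longest bar.

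At which DPA the cultivars differed was described from the same 12 libraries, so these counts are not independent of the difference. At 14 DPA, 1007 of all tested genes (5.86%) were higher in RD57 and 825 (4.8%) in RD6. At 21 DPA, 1229 (7.15%) were higher in RD57 and 1174 (6.83%) in RD6. Among the 126 negative genes, 59 differed only at 21 DPA, where RD6 was higher, and 41 only at 14 DPA, where RD57 was higher. In 14, RD57 was higher at 14 DPA and RD6 at 21 DPA. Among the 36 positive genes, 20 differed only at 21 DPA, with RD57 higher, and 7 only at 14 DPA, with RD6 higher. In 5, RD6 was higher at 14 DPA and RD57 at 21 DPA.

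RD57 at 14 DPA was the group with the highest mean in 98 of the 126 negative genes, and RD57 at 21 DPA the group with the lowest in 99. For the positive genes, RD57 at 21 DPA was highest in 27 of 36, and the lowest group was RD57 at 14 DPA in 18 and RD6 at 21 DPA in 14. Over all tested genes, RD57 at 14 DPA was highest in 28.9% and lowest in 23.4%, RD57 at 21 DPA highest in 30.2% and lowest in 31%, and RD6 at 21 DPA lowest in 22.7%. These counts come from the values that chose the genes and are a description.

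The libraries at 7 and 28 DPA, which had no part in the difference, were then compared between the cultivars. At 28 DPA, 32 of the 36 positive genes were above 0 in all 6 libraries, and 13 of these (40.6%) were higher in RD57, against 3.06% of the 15801 genes tested. None of the 32 was higher in RD6 by the limma adjusted p, and 3 were at an unadjusted p under 0.05. Their median log2 difference at 28 DPA, RD57 minus RD6, was 0.77, against 0.02 over all genes tested. With each of the 6 libraries left out in turn, 9 to 14 of the 32 were higher in RD57 and 0 in RD6, while the share of all genes higher in RD57 ran from 0.905% to 4.61%. Without RD6 28 DPA replicate 3, it was 14 of 32, against 4.61%.

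Of the 126 negative genes, 71 were above 0 in all 6 libraries of 28 DPA, while 48 were listed at 0 in RD57 and 55 in RD6, the 48 being at 0 in both. The remaining genes at 0 in RD6 were above 0 in RD57 and did not enter this comparison. Over all 17186 genes, 1158 were at 0 in RD57 and 1385 in RD6, and all 1158 were at 0 in both. Of the 71, 9 (12.7%) were higher in RD6, against 1.9% of the 15801 genes, and 1 was higher in RD57. The log2 difference at 28 DPA was below 0 in 56 of the 71 (78.9%), against 47.6% of all genes tested, with a median of -0.65. Without RD6 28 DPA replicate 3, again 9 were higher in RD6 and 1 in RD57, 47 were below 0 and the median was -0.27, while 2.9% of all genes were higher in RD6. The number higher in RD6 was 4 without RD57 28 DPA replicate 3, 5 without RD57 28 DPA replicate 1 or RD6 28 DPA replicate 1, and 6 without RD57 28 DPA replicate 2 or RD6 28 DPA replicate 2, against 0.684% to 0.854% of all genes in those fits. With the genes called without RD57 14 DPA replicate 1, 14 of 203 negative genes above 0 at 28 DPA were higher in RD6 and 1 in RD57, and 17 of 65 positive genes were higher in RD57 and 1 in RD6.

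At 7 DPA, some of the negative genes were higher in RD57. Of the 113 above 0 in all 6 libraries, 21 (18.6%) were higher in RD57 and 4 (3.54%) in RD6, against 3.72% and 3.42% of the 16330 genes tested. Without RD57 7 DPA replicate 1, 30 were higher in RD57 and 8 in RD6, against 8.3% and 7.62% of all genes. Leaving out any other library gave 16 to 18 in RD57, against 1.47% to 1.85% of all genes. For RD6 those fits gave 4 to 5, against 1.29% to 1.96%. The log2 difference at 7 DPA, RD57 minus RD6, was below 0 in 40 of the 113 (35.4%), against 49.9% of all genes tested, with a median of 0.147. Without RD57 7 DPA replicate 2, 56 of the 113 were below 0 and the median was 0.016, so this lean was absent there. Of the 26 positive genes above 0 at 7 DPA, 1 was higher in each cultivar. Among genes called without RD57 14 DPA replicate 1, 304 negative ones were above 0 at 7 DPA. Of these 304, 35 were higher in RD57 and 19 in RD6, a weaker lean to RD57. Of 53 positive ones, 2 were higher in RD57 and 3 in RD6. Over the 4 DPA, the median of the 126 negative genes went through 8.35, 19.6, 3.51 and 0.95 FPKM in RD57 and through 5.19, 7.54, 9.39 and 1.96 FPKM in RD6. RD6 at 21 DPA was the group with the highest mean in 24 of the 126 genes (19%), near its share of 16% over all tested genes. The median of the 36 positive genes went through 2.63, 3.00, 18.2 and 15.4 FPKM in RD57 and 2.44, 5.87, 2.52 and 4.63 FPKM in RD6. Over all tested genes the medians stayed between 8.98 and 10.2 FPKM in every group. The values at 14 and 21 DPA in these profiles were those that chose the genes.

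**Figure D3:**
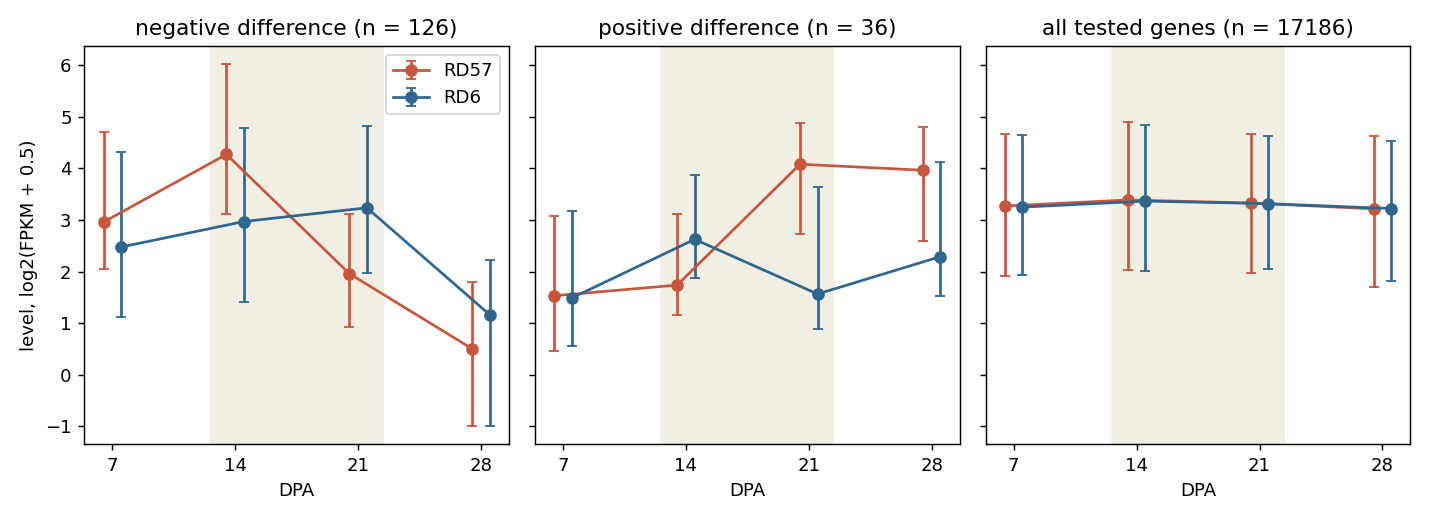
Level as log2(FPKM + 0.5) at 7, 14, 21 and 28 DPA in RD57 and RD6 for the genes with a negative difference, those with a positive one and all tested genes. Points are medians over genes of the group means, bars run from the lower to the upper quartile, and shading marks the interval that chose the genes. The RD57 and RD6 lines cross between 14 and 21 DPA in the first 2 panels and lie together in the last.

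The identifiers in the table are those of the authors' transcript assembly and carry no gene names. The genes with the largest differences are therefore given by identifier only. XLOC_031682 rose in RD57 and fell in RD6. In RD57 it measured 62.6, 58.5 and 43.1 FPKM at 14 DPA and 149, 141 and 142 FPKM at 21 DPA. In RD6 it measured 11, 12.9 and 16.3 FPKM at 14 DPA and 2.06, 2.44 and 3.8 FPKM at 21 DPA. No group overlapped another, RD57 was higher at both DPA, and the gap was wider at 21 DPA. The change was 1.41 ± 0.21 (SE, n = 3 libraries per group) in RD57 and -2.11 ± 0.21 in RD6, with a difference of 3.51 ± 0.30 and a limma adjusted p of 0.000468. It passed in all 23 alternatives, at 3.34 to 4.03. In the libraries not used for the difference, RD57 was also higher, by 1.77 on the log2 scale at 7 DPA (limma adjusted p of 0.0013) and by 5.03 at 28 DPA (1.59e-05).

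XLOC_024737 rose in RD57 alone. The RD57 libraries gave 46.9, 19.6 and 16.1 FPKM at 14 DPA and 234, 208 and 265 FPKM at 21 DPA. The RD6 libraries gave 24.8, 55.4 and 47.9 FPKM at 14 DPA and 67.8, 36.5 and 6.24 FPKM at 21 DPA. All 3 RD57 libraries at 21 DPA stood above the rest, whereas the RD6 libraries at 21 DPA were spread on both sides of those at 14 DPA. The change was 3.23 ± 0.67 in RD57, an 8.56-fold higher mean at 21 DPA, and -0.67 ± 0.67 in RD6. The difference was 3.90 ± 0.95 with a limma adjusted p of 0.045. It passed in only 3 of the 12 fits without 1 library, with an adjusted p of 0.0167 to 0.102 and a value of 2.93 to 4.60. It fell short without any one of the RD57 21 DPA libraries, of the RD6 14 DPA libraries, RD57 14 DPA replicate 2 or 3, or RD6 21 DPA replicate 2. In the libraries not used for the difference, the cultivars did not pass for XLOC_024737, at 1.41 with a limma adjusted p of 0.214 at 7 DPA and at -0.58 with 0.814 at 28 DPA. At 28 DPA the RD57 libraries of XLOC_024737 were spread over 300, 130 and 10.9 FPKM, and the RD6 libraries were at 163, 158 and 56.7 FPKM, within that range.

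XLOC_003207 had the largest negative difference among genes that met the rule for naming. Expression in RD57 was 48.1, 117 and 275 FPKM at 14 DPA and 2.47, 2.95 and 13.8 FPKM at 21 DPA. Expression in RD6 was 58.7, 73.6 and 17.7 FPKM at 14 DPA and 34.4, 60.9 and 26.4 FPKM at 21 DPA. RD57 at 21 DPA lay below every other library, and the RD6 groups overlapped. The change was -4.46 ± 0.72 in RD57 and -0.16 ± 0.72 in RD6. The difference was -4.31 ± 1.02 with a limma adjusted p of 0.0416. It passed in 3 of the 12 fits without 1 library, those without RD57 14 DPA replicate 1, RD57 21 DPA replicate 3 or RD6 21 DPA replicate 1, and the adjusted p over the 12 ran from 0.0115 to 0.104.

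XLOC_028088 fell in both cultivars and more in RD57. In RD57 it measured 65.2, 214 and 365 FPKM at 14 DPA and 3.12, 3.04 and 2.88 FPKM at 21 DPA. In RD6 it measured 62.6, 50.3 and 27.8 FPKM at 14 DPA and 6.51, 22.3 and 15.7 FPKM at 21 DPA. RD57 stood above RD6 at 14 DPA and below it at 21 DPA with no overlap. The change was -5.62 ± 0.56 in RD57 and -1.71 ± 0.56 in RD6. The difference was -3.91 ± 0.79 with a limma adjusted p of 0.0259. It passed in 4 of the 12 fits without 1 library, those without RD57 14 DPA replicate 1, RD57 21 DPA replicate 3, RD6 14 DPA replicate 1 or RD6 21 DPA replicate 1, with an adjusted p of 0.00326 to 0.0647 over the 12. Both XLOC_003207 and XLOC_028088 were listed at 0 in all libraries at 28 DPA.

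Of the genes that the study names, 4 could be followed, through identifiers read by eye from a picture of the study, where a misread digit would give another gene. They are GBSSI (XLOC_023977), AgpS2b (XLOC_033053), which encodes a small subunit of ADP-glucose pyrophosphorylase, AtGSTF13 (XLOC_004640) and ENOD93 (XLOC_025786). None of the 4 passed the threshold for a difference with all 12 libraries. Both starch genes were among the abundant transcripts of all 12 libraries, at 241 FPKM or more.

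GBSSI fell in both cultivars. The RD57 libraries gave 19000, 27200 and 17500 FPKM at 14 DPA and 6310, 4240 and 7360 FPKM at 21 DPA. The RD6 libraries gave 5820, 8930 and 7400 FPKM at 14 DPA and 241, 607 and 945 FPKM at 21 DPA. RD57 was above RD6 at each DPA with no overlap, and each cultivar was lower at 21 DPA. RD57 minus RD6 was 1.518 at 14 DPA, short of the threshold (limma adjusted p of 0.0519), and 3.49 at 21 DPA (0.00044). Mean FPKM was 3.56-fold higher at 14 than at 21 DPA in RD57 and 12.4-fold higher in RD6. The change was -1.84 ± 0.45 in RD57 (limma adjusted p of 0.00334) and -3.81 ± 0.45 in RD6 (2.95e-05). The difference was 1.97 ± 0.64 with a 95% interval of 0.58 to 3.37 and an adjusted p of 0.0952. It passed in 1 of 23 alternatives, after quantile normalization, at 2.57 with an adjusted p of 0.0287. Over the 23, the value ran from 1.42 to 2.57 and the adjusted p up to 0.254.

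AgpS2b fell in both cultivars too. Expression in RD57 was 2880, 3940 and 3100 FPKM at 14 DPA and 431, 313 and 630 FPKM at 21 DPA. Expression in RD6 was 3090, 2580 and 2400 FPKM at 14 DPA and 375, 1050 and 936 FPKM at 21 DPA. The cultivars overlapped at both DPA, unlike for GBSSI. The change was -2.90 ± 0.37 in RD57 and -1.90 ± 0.37 in RD6. The difference was -0.997 ± 0.518, with a 95% interval of -2.12 to 0.13 and a limma adjusted p of 0.263. It passed in 1 of 23 alternatives, at -1.46 with an adjusted p of 0.0466 without RD6 21 DPA replicate 1. In the 23, the value went down in size to -0.72 and the adjusted p up to 0.5.

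AtGSTF13 carries the name of a phi-class glutathione S-transferase of Arabidopsis, a family that conjugates glutathione. In RD57 it measured 51.4, 55 and 42.9 FPKM at 14 DPA and 2.36, 4.2 and 8.63 FPKM at 21 DPA. In RD6 it measured 9.91, 3.45 and 7.76 FPKM at 14 DPA and 1.59, 3.07 and 3.33 FPKM at 21 DPA. RD57 at 14 DPA stood above all other libraries, and the cultivars overlapped at 21 DPA. The change was -3.33 ± 0.43 in RD57 and -1.19 ± 0.43 in RD6. The difference was -2.14 ± 0.60 with a limma adjusted p of 0.0641. It passed in 4 of 23 alternatives, among them 2 of the 12 fits without 1 library, at -2.58 with an adjusted p of 0.0287 without RD57 21 DPA replicate 3 and at -2.42 with 0.0451 without RD6 21 DPA replicate 1. Over the 23, the value ran from -2.58 to -1.73 and the adjusted p from 0.0281 to 0.136.

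ENOD93 carries the name of an early nodulin, a gene first described in legume root nodules. The RD57 libraries gave 44.8, 84.4 and 233 FPKM at 14 DPA and 4.16, 0.734 and 5.74 FPKM at 21 DPA. The RD6 libraries gave 25.7, 23.9 and 12.4 FPKM at 14 DPA and 0.959, 5.37 and 2.59 FPKM at 21 DPA. It was higher in every RD57 library than in every RD6 library at 14 DPA, and the cultivars overlapped at 21 DPA. RD57 minus RD6 at 14 DPA was 2.255, short of the threshold (limma adjusted p of 0.0586). The change was -4.87 ± 0.69 in RD57 and -2.76 ± 0.69 in RD6. The difference was -2.11 ± 0.98 with a limma adjusted p of 0.216, and it passed in 0 of 23 alternatives, where the adjusted p ran from 0.0902 to 0.41. AtGSTF13 and ENOD93 were listed at 0 in all libraries at 28 DPA.

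**Figure D4:**
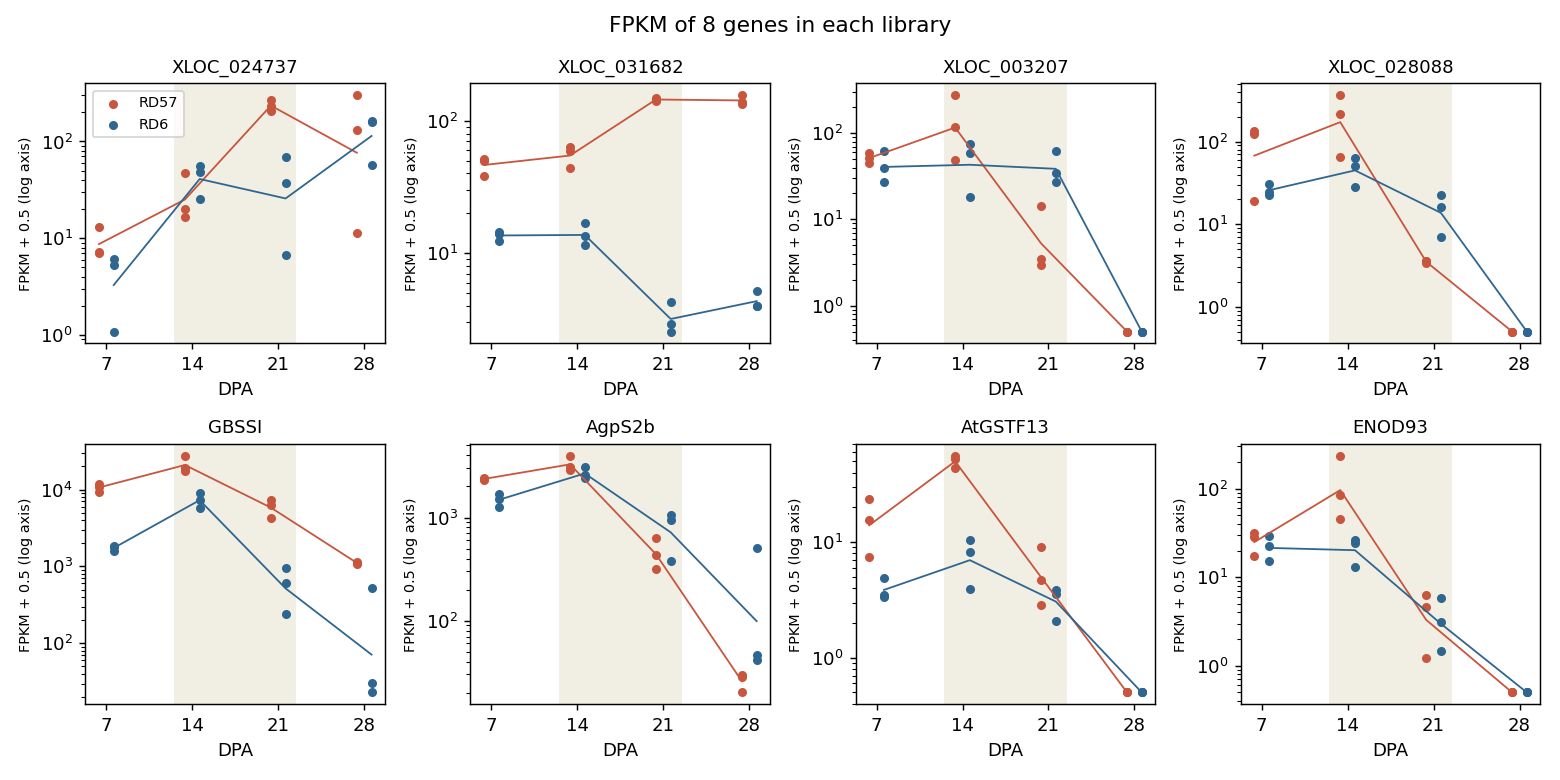
FPKM + 0.5 on a log axis against DPA for 8 genes, with 1 point per library, lines through the group means on the log scale, and the 14 to 21 DPA interval shaded. For XLOC_031682 the RD57 line rises and the RD6 line falls over the interval, and for XLOC_003207 and XLOC_028088 the lines cross.

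Genes of all levels were among those that differed. Of 4976 genes with a mean under 5 FPKM over the 12 libraries, 0.904% passed both thresholds. The share was 0.927% of 9710 genes at 5 to 50 FPKM, 1.1% of 2276 genes at 50 to 500 FPKM and 0.893% of 224 genes at 500 FPKM or more. In the last class, 114 genes fell and 78 rose in RD57, and 107 fell and 70 rose in RD6, with a median change of -0.75 and -0.48, respectively. The table does not mark filled values, so a value was taken as filled where it equalled the mean of the other 2 replicates within a relative tolerance of 1e-05. By this inference, 43 of the 162 genes (26.5%) held at least 1 filled value, against 10.1% of all tested genes. With such genes left out, 117 genes passed both thresholds.

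Genes outside the test were described by their detection, with no test. A gene was listed above 0 in all 3 replicates of a group or in none, and the smallest value above 0 was 0.50004 FPKM, so a gene listed at 0 may have been expressed below the authors' floor of 0.5 FPKM. Among genes above 0 in the other 3 groups, 950 (3.6% of all genes) were listed at 0 in RD57 at 21 DPA and 289 (1.1%) in RD6 at 21 DPA. At 14 DPA the numbers were 409 in RD57 and 367 in RD6. Genes missing from 1 group alone were thus most numerous in RD57 at 21 DPA, and the counts at 14 DPA lay closer to each other.

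The 950 genes were mostly low, with a median of 2.17 FPKM in RD57 at 14 DPA, 2.32 in RD6 at 14 DPA and 1.26 in RD6 at 21 DPA. With a mean of at least 2 FPKM required in each of the other 3 groups, a minimum chosen after the data were seen, 149 such genes remained in RD57 and 31 in RD6 for 21 DPA, and 26 and 31 for 14 DPA. A further 977 genes were above 0 at 14 DPA and at 0 at 21 DPA in both cultivars, and 715 the reverse. Over the whole table, RD57 had 21371 genes above 0 at 14 DPA and 20236 at 21 DPA, and RD6 had 21229 and 21083. Of the 950 genes, 119 were above 0 at 28 DPA in RD57 and 84 in RD6.

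**Figure D5:**
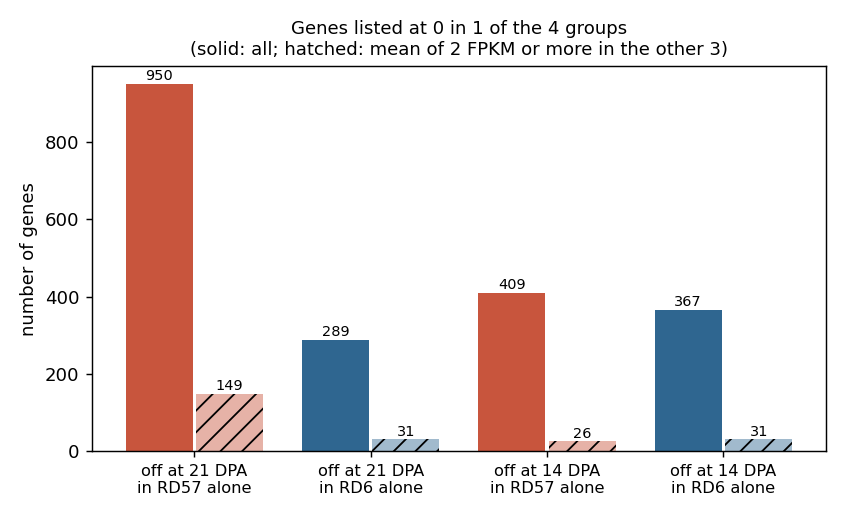
Number of genes listed at 0 in 1 of the 4 groups and above 0 in the other 3. Solid bars count all such genes, and hatched bars those with a mean of at least 2 FPKM in each of the other 3 groups. The highest bar, 950 genes, is for RD57 at 21 DPA, and the hatched bar beside it is 149.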

How the data were processed

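RNA of 24 grain libraries was sequenced by the authors. Per the labels and the study's methods, reads were filtered with Fastp, Trimmomatic and SortMeRNA and aligned to the indica genome ASM465v1 with HISAT2. Transcripts were assembled and quantified with Cufflinks, Cuffmerge, Cuffquant and Cuffnorm, with versions not given in the sources used here. The deposited FPKM table is thus scaled by the authors, who also dropped values under 0.5 FPKM, required 2 replicates and filled missing values with the replicate average. Filling narrows the spread between replicates. Columns were matched to samples by name, and 0 were left unmatched. The table holds no read depth per value, so precision was judged from the 3 replicates.

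Values were read in R 4.3.3 as log2(FPKM + 0.5). A model of 4 group means was fitted to the 12 libraries with limma 3.58.1 (trended prior), and p-values were adjusted by Benjamini-Hochberg over 17186 genes. Genes were called at an adjusted p of at most 0.05 and an absolute difference of at least 2. Single genes were said to pass by adjusted p. The 7 and 28 DPA libraries were fitted separately. The study's count model (edgeR) needs read counts, which FPKM are not, and was not applied here. Exact two-sided permutation of 3 against 3 libraries cannot give a p under 0.1 and was not used. The scripts were tested on simulated data. Figures used Python 3.11.15, pandas 2.3.3 and matplotlib 3.10.9.

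Named were the 2 genes with the largest positive and the 2 with the largest negative difference among called genes with no filled value and a mean of at least 10 FPKM in 1 group, plus the 4 genes named by the study. Of the identifiers, 0 matched the gene table at hand, so pathway lists were not used. Members, lists and tests were chosen with earlier results of these data known. Alternatives were other pseudocounts, filters, scalings, priors, sample sets and a size of 1, the replicate block, and leaving out each library. Setting filled values to missing and leaving out each library at 7 and 28 DPA were added after seeing the data.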

Additional observations from a re-analysis of the deposited data

Results flagged for a closer look

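The change from 14 to 21 DPA differed between RD57 and RD6 by a test of the difference itself in 162 genes. The 4 genes given by identifier were chosen from these for their large differences, so their passing is not a further result. The log2 difference, RD57 minus RD6, was 3.895 for XLOC_024737, 3.51 for XLOC_031682, -4.31 for XLOC_003207 and -3.91 for XLOC_028088. With each library left out in turn, XLOC_031682 passed in all 12 fits. XLOC_024737 and XLOC_003207 passed in 3 each, and XLOC_028088 in 4.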

How the results depend on the processing

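Against 162 genes past both thresholds and 629 by adjusted p alone, testing genes listed at 0 in some groups gave 1690 and 6849. By construction, that fit includes groups whose replicates are all 0 and have no spread. Fitting all 24 libraries gave 1150 genes by adjusted p alone, and a size of at least 1 gave 569. The part of these groups in the count of 1150 was not tested. Leaving out 1 library gave 58 to 389 genes past both thresholds and 130 to 2262 by adjusted p alone. Where this left 2 libraries in a group, the spread was pooled over all 4 groups. With the replicate block, 114 genes passed both thresholds and 316 adjusted p alone. The sample titles number the replicates and do not say what a number stands for. Deviations of same-numbered libraries of different groups correlated at -0.322 to 0.29 over 18 pairs, and those of other numbers at -0.394 to 0.349. The median for same-numbered libraries was -0.014. Of the 3 numbers compared in each case, the own number correlated best in 11 of 36 cases. These values are a description, and whether a number marks a shared batch was not tested beyond them. The other alternatives gave 112 to 218 genes past both thresholds and 444 to 802 by adjusted p alone. XLOC_024737 lost its call with all 24 libraries (adjusted p of 0.0734), a constant prior (0.0506), filled values set to missing (0.0508) and the replicate block (0.057), and XLOC_003207 with the block (0.0596). The read count behind each value is unknown, which limits what can be read from genes listed at 0. The study lists mapped read pairs for each library, and their part in the detection counts was not tested.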

Other observations

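The ratio of GBSSI to AgpS2b within each library, formed after their values were seen and not tested, moved in opposite directions in the 2 cultivars. Both values are scaled to transcript length. In the RD57 libraries of 14 DPA the ratio was 6.59, 6.91 and 5.64, and in those of 21 DPA it was 14.7, 13.5 and 11.7. In the RD6 libraries of 14 DPA it was 1.88, 3.47 and 3.08, and in those of 21 DPA it was 0.643, 0.579 and 1.01. No group overlapped another. The ratio shows that the transcripts changed unequally within a library, and not which of them changed.

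At 28 DPA, RD6 replicate 3 stood apart for both genes, with 521 FPKM of GBSSI against 29.8 and 22.5 FPKM in the other RD6 libraries, and 506 FPKM of AgpS2b against 45.8 and 40.6 FPKM. In RD57 at 28 DPA, GBSSI measured 1100, 1090 and 1150 FPKM and AgpS2b 19.6, 29.4 and 28 FPKM. Over the whole table, 1454 genes were listed above 0 in RD57 alone at 28 DPA and 0 in RD6 alone.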
